A study of Mus musculus with 9 samples.

Results

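The guidance cues and their receptors studied here were 67 of the 46517 gene rows measured in sorted cells of the mouse hair follicle. They were defined by gene symbol, with earlier results of these data known. The set held the semaphorins of classes 3 to 7, the plexins and neuropilins that receive them, and the ephrins and Eph receptors. It also held the netrins, the Unc5 receptors, the Slits and the Robo receptors. Of the 67 genes, 34 encode ligands and 33 encode receptors. RNA was sequenced in bulk from 4 populations sorted by flow cytometry from back skin of P30 mice, with follicles in anagen VI, the late phase of hair growth. The populations were hair follicle stem cells (HFSC, n = 3 libraries), outer root sheath cells (ORS, n = 2), basal hair bulb cells (basal HB, n = 2) and suprabasal hair bulb cells (suprabasal HB, n = 2). The strain label of all 9 samples is Lhx2-GFP (CD1). The protocol instead gives K14-H2BGFP, in which a keratin 14 promoter drives the reporter, so which line supplied the GFP for sorting is unclear. No treatment is given, sex is given as mixed, and the sort used GFP, the α6 and β1 integrins, CD34, Sca-1 and P-cadherin. Gates and mice per sample are not stated, and nothing says that replicates are different animals. The p-values therefore measure the spread between these samples, which may be technical.

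Guidance cues were first studied as signals that steer growing axons. Semaphorins bind plexins, and most secreted class 3 semaphorins need a neuropilin as co-receptor. Ephrin-A ligands are held to the membrane by a lipid anchor and mostly bind EphA kinases, while ephrin-B ligands cross the membrane and mostly bind EphB kinases, so both need cell contact. Slits bind Robo receptors, and netrin-1 binds Dcc and the Unc5 receptors. Many of these genes are also expressed in epithelia, where they are known for effects on adhesion, boundaries and movement of cells.

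Total expected counts, the estimated reads per library, ran from 25098237 to 88596741, with HFSC lowest, at 25098237 to 29902799. Y-linked Ddx3y had at most 1.25 expected counts in the 3 HFSC libraries and at least 4300 in each of the other 6, and the ribosomal protein gene Rps12 was listed at 0 in all 3 HFSC libraries only. In comparisons with HFSC, the population therefore cannot be told apart from library depth, preparation or the sex of the mice. Xist, the RNA made from the inactive X chromosome of females, differed among the other libraries too: it stood at 1.11 and 1459 CPM (counts scaled to library size) in ORS replicates 1 and 2, 359 and 298 for basal HB, 1.23 and 1.05 for suprabasal HB, against 1188 to 1437 in HFSC. Xist thus differed within ORS and between the hair bulb populations, and the sex of the mice cannot be told apart from the population in suprabasal against basal HB either. The labels were set against summed TPM, a transcript level scaled for length and depth, of marker lists. A list of 7 follicle epithelium markers ran from 10877 to 11804 TPM in HFSC, from 5103 to 6412 in ORS, from 3280 to 3387 in basal HB and from 1299 to 1427 in suprabasal HB. A list of 6 outer root sheath and companion layer markers went against its label, at 7493 to 8692 TPM in HFSC and 3112 to 3660 in ORS, with 5 of 6 lower in ORS. The sum of 7 bulge stem cell markers overlapped between HFSC (4058 to 4715 TPM) and ORS (3939 to 5093), with 5 of 7 lower and 1 higher in ORS, and was at most 966 in the hair bulb. Hair bulb matrix markers (5 genes) were highest in basal HB, at 1225 to 1305 TPM. Differentiating hair bulb markers (7 measured) were highest in suprabasal HB, at 2658 to 3622 TPM, against 1879 to 2012 for basal HB. Of these 7, 6 were higher and 1, Tchh, was lower in suprabasal than in basal HB. Tchh went against the order of the sum: the basal HB libraries held 1312 and 1304 TPM, the suprabasal ones 182 and 158. The suprabasal HB libraries also held 10982 to 12171 TPM of 9 melanocyte markers, against 773 to 1267 in basal HB. Because RNA was measured in bulk, fewer cells of a type and less RNA per cell cannot be told apart. The strand used in counting is not stated, and values are uncertain for members whose span overlaps a gene on the other strand, among them Epha1 (1727 bases shared with Zyx), Ephb1, Efna3, Efna4, Ntn4, Ntn5, Nrp2, Plxna1, Plxna4, Plxnb1, Sema3e, Sema4c, Sema5a, Sema6d, Slit2 and Unc5c.

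Along the follicle, Epha4, Ephb1, Ephb3 and Ephb6 fell from HFSC to ORS while Robo1, Nrp2 and Plxna2 rose. From ORS to basal HB, Unc5b, Sema6d, Plxnd1 and Nrp1 rose and Sema3c, Sema3e and Ntn1 fell. From basal to suprabasal HB, Plxnc1, Plxna4 and Sema6d rose and Slit2, Slit3, Ephb6 and Sema3e fell. Of the 67 members, 64 passed the filter on low counts, and Epha6, Epha8 and Slit1 did not. Between ORS and HFSC, 13 of the 64 were higher in ORS and 17 lower by edgeR's quasi-likelihood test at an adjusted p under 0.05. Together these were 46.9% of the members, while 41.9% of the 20491 genes tested were called in that comparison (18.1% higher, 23.8% lower), so the members' share was near the background. Between basal HB and ORS, 20 members were higher in basal HB and 17 lower, 57.8% against a background of 30.5% (15.8% higher, 14.7% lower). Between suprabasal HB and basal HB, 11 were higher in suprabasal HB and 17 lower, 43.8% against 27.9% (13.1% higher, 14.8% lower). The median log2 difference over the members was -0.32, 0.15 and -0.17 in the 3 comparisons, and -0.05, -0.04 and 0.00 over all genes tested. From HFSC to ORS, 6 of 33 ligands were higher and 12 lower (18.2% and 36.4%), and 7 and 5 of 31 receptors (22.6% and 16.1%), beside 18.1% and 23.8% of all genes. From ORS to basal HB, 9 ligands were higher and 10 lower (27.3% and 30.3%), and 11 and 7 receptors (35.5% and 22.6%), beside 15.8% and 14.7%. From basal to suprabasal HB, 5 ligands were higher and 11 lower (15.2% and 33.3%), and 6 and 6 receptors (19.4% each), beside 13.1% and 14.8%. The difference between ligands and receptors was not tested. Without basal HB replicate 1, fewer members were called lower in basal HB than in ORS, and so were fewer of all genes tested. Fewer members were called higher in suprabasal HB without basal HB replicate 1, basal HB replicate 2 or suprabasal HB replicate 1. The calls over all genes tested fell in those settings too. On log2(TPM + 1) the median of all genes shifted to 0.19 in ORS against HFSC and to -0.19 in suprabasal against basal HB, and 68.7% and 20.6% of all calls were then higher, against 43.2% and 46.8% with edgeR.

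**Figure D1:**
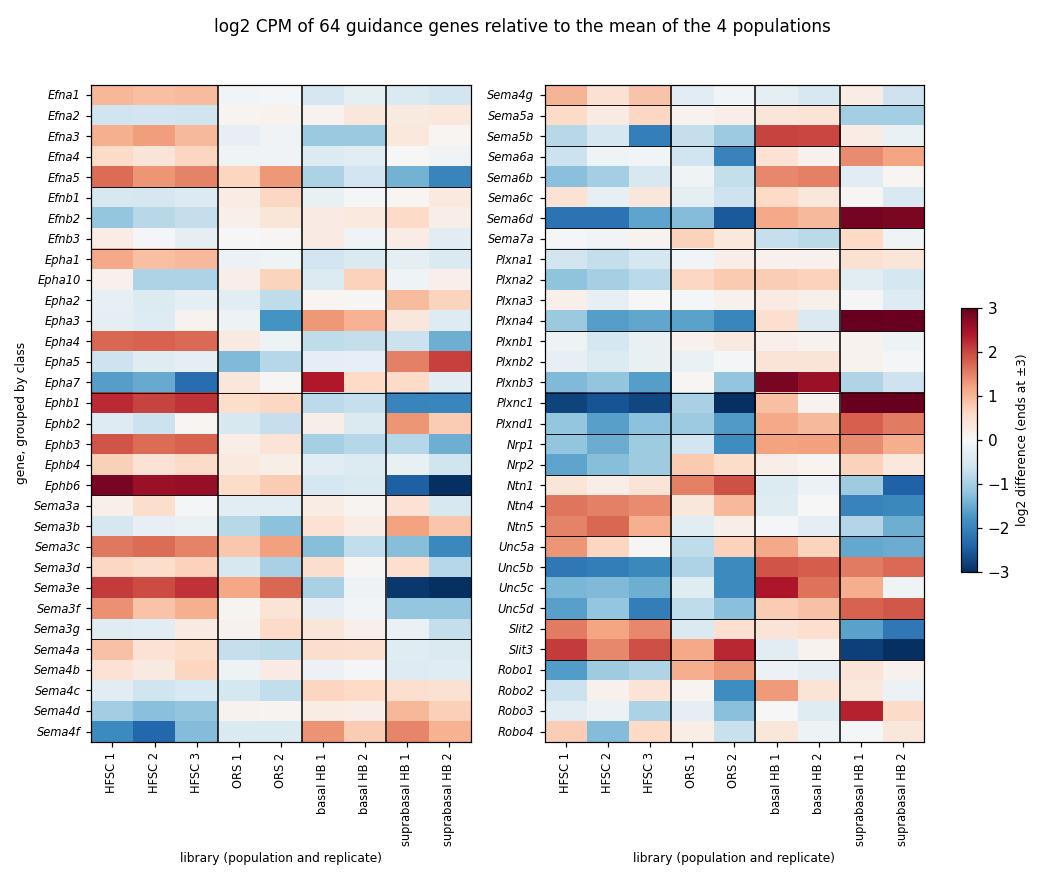
Each row is 1 of the 64 guidance genes that passed the filter, grouped by family, and each column is 1 of the 9 libraries. The colour gives log2(CPM + 0.1) minus the mean of the 4 population means, ending at ±3. Epha4, Ephb1, Ephb3, Ephb6, Sema3c and Sema3e are red in the 3 HFSC libraries, and Sema3c and Sema3e in the 2 ORS libraries too. Sema6d, Plxna4 and Plxnc1 are reddest in the 2 suprabasal HB libraries.

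A member was called a signature gene of a population when it was higher there than in each of the other 3, by the largest of 3 one-sided p-values after adjustment. In HFSC, 13 of the 64 members were signature genes, 20.3% against 12.5% of all genes tested. They were Efna1, Efna3, Efna4, Epha1, Epha4, Ephb1, Ephb3, Ephb6, Ntn4, Ntn5, Sema3f, Sema4g and Slit2, and 7 of them kept the call under every alternative run: Efna1, Efna3, Epha1, Epha4, Ephb1, Ephb3 and Ephb6. Among the others, Sema3f lost it only on the TPM scale (adjusted p = 0.106 and 0.12), and Efna4 lost it on that scale (0.303 and 0.322) and without suprabasal HB replicate 2 (adjusted p = 0.0642). Ntn4 lost it on both TPM scales (0.16 and 0.179) and without HFSC replicate 1 (0.0657), HFSC replicate 2 (0.0504) or ORS replicate 1 (0.0591). Ntn5 lost it without HFSC replicate 1 or 2, ORS replicate 1 or either basal HB library (0.0573 to 0.114), and on log2(TPM + 0.1) (0.108). Sema4g lost it without HFSC replicate 1 or 3, ORS replicate 1, basal HB replicate 2 or suprabasal HB replicate 2 (0.0722 to 0.225), and on both TPM scales (0.33 and 0.365). Slit2 lost it without any 1 HFSC library, either basal HB library or suprabasal HB replicate 2 (0.0652 to 0.172), with a replicate block (0.107) and on log2(TPM + 0.1) (0.0846). In basal HB, 3 members were signature genes, Plxnb3, Sema5b and Sema6b, 4.69% against 3.71% of all genes. Without either basal HB library or either suprabasal HB library only Plxnb3 was left. In suprabasal HB, 6 members were signature genes, Epha2, Epha5, Plxna4, Plxnc1, Sema4d and Sema6d, 9.38% against 2.74%. This count fell without basal HB replicate 1, basal HB replicate 2 or suprabasal HB replicate 1. Plxna4 alone kept its call under every alternative. Over all genes tested, fewer signature genes of suprabasal HB were called in these settings too. The same held for signature genes of basal HB in the settings given for that population. No member was a signature gene of ORS by edgeR, where the background was 0.542%. By that test 2 members, Ntn1 and Robo1, had an unadjusted p under 0.05. The DESeq2 Wald test called 2 members, and 349 of all 20491 genes tested.

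The 250 bases upstream of the start were examined for the members with a RefSeq entry, 58 of the 67, which have 74 promoters in GRCm38.p6. A GC box, GGGCGG on either strand, was found in 52 of the 74 (70.3%), against 32.7% of all 32851 promoters of the same length. The TATA box, TATAAA on either strand, was found in 2 (2.70%), against 12.4%. The core bound by TCF and LEF factors, CTTTGAA or CTTTGAT, was found in 3 (4.05%, against 7.48%), and CATGTG in 3 (4.05%, against 12.3%), each on both strands. The palindromic E-box, CACGTG, was found in 4 (5.41%, against 6.02%), and it cannot match the same bases as CATGTG. The median GC content was 64.4% in the members' promoters and 52.4% in all. A match is a description of the letters and not evidence of binding. The windows of 4 members with contrasting expression are printed 5′ to 3′ on the gene's own strand, with GC boxes in capitals: Epha4, highest in HFSC (chr1:77515089-77515338, minus strand, 66.0% GC); Sema3e, high in HFSC and ORS (chr5:14025026-14025275, plus strand, 48.0% GC); Unc5b, high in both hair bulb populations (chr10:60831582-60831831, minus strand, 66.8% GC); and Plxnc1, highest in suprabasal HB (chr10:94944846-94945095, minus strand, 68.8% GC). They hold 1, 2, 2 and 4 GC boxes.
Epha4: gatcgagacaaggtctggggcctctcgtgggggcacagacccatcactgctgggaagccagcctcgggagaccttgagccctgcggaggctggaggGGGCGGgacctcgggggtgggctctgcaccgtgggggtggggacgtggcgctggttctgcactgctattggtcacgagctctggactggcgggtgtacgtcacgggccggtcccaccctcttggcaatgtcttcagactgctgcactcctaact
Sema3e: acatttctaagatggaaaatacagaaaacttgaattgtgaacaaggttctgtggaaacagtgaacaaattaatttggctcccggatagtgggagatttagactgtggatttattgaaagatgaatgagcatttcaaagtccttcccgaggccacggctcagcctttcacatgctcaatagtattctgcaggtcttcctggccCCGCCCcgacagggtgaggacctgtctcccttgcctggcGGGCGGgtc
Unc5b: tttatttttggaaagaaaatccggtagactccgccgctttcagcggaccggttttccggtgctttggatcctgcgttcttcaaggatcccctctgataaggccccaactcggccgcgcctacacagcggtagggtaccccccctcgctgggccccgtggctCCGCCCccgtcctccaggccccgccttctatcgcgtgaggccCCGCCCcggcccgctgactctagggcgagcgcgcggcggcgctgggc
Plxnc1: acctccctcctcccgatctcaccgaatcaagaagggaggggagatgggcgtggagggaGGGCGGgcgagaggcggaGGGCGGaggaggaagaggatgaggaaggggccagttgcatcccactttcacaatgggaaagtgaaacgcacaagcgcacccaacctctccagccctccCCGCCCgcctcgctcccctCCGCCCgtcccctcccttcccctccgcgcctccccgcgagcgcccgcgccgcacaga

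Of the 5 ephrin-A ligands, 4 were highest in HFSC. Values are given for each library as CPM, scaled with TMM factors. Efna1 had 98, 92 and 94.8 CPM in HFSC, 46.1 and 47.7 for ORS, 34.5 and 40.3 for basal HB, and 36.3 and 32.7 for suprabasal HB. All 3 HFSC libraries lay above the other 6, and the gene fell 2.02-fold from HFSC to ORS (log2 -1.02, SE 0.09, adjusted p = 9.64e-05). Efna3 had 38.5, 43.9 and 36.1 CPM in HFSC, 15.4 and 16.8 for ORS, 8.42 and 8.36 for basal HB, and 22.6 and 18.9 for suprabasal HB. It fell 2.45-fold from HFSC to ORS (log2 -1.29, SE 0.13, adjusted p = 0.000124) and 1.92-fold from ORS to basal HB (log2 -0.94, SE 0.13, adjusted p = 0.00107), then rose 2.47-fold from basal to suprabasal HB (log2 1.31, SE 0.14, adjusted p = 0.000282), so that basal HB held its lowest libraries. Efna5 had 242, 188 and 212 CPM in HFSC, 118 and 185 for ORS, 39 and 50.5 for basal HB, and 28.1 and 18.9 for suprabasal HB. Both ORS libraries lay below all 3 HFSC libraries, though 185 and 188 CPM were close. The difference did not pass the test (log2 -0.50, SE 0.23, adjusted p = 0.12), but it was called without ORS replicate 2 (log2 -0.86, adjusted p = 0.0314). The gene fell 3.39-fold from ORS to basal HB (log2 -1.76, SE 0.26, adjusted p = 0.00126). Efna4 ran from 31.3 to 37.5 CPM in HFSC and from 18 to 24 CPM in the other 6 libraries. Efna2 went the other way, from 10.7 to 10.9 CPM in HFSC to 17.2 to 20.7 CPM elsewhere, and rose 1.6-fold from HFSC to ORS (log2 0.68, SE 0.11, adjusted p = 0.00158). In summed TPM (mean ± SD, n = 3 libraries in HFSC and 2 in the others) the ephrin-A ligands stood at 244 ± 26.4 in HFSC, 189.7 ± 31.6 in ORS, 119 ± 3.27 in basal HB and 102 ± 18 in suprabasal HB, led by Efna5 in ORS and by Efna1 in the other 3 populations.

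The EphA receptors that respond to these ligands included the most abundant guidance receptor of HFSC after Ephb6 in TPM, Epha1. Epha1 (chr6:42358487-42373268; positions are mm10, from GENCODE M21) had 543, 464 and 485 CPM in HFSC, 220.2 and 224 for ORS, 167 and 184 for basal HB, and 202 and 184 for suprabasal HB. The HFSC libraries stood above the rest without overlap, and the gene fell 2.24-fold from HFSC to ORS (log2 -1.16, SE 0.11, adjusted p = 9.96e-05). Epha4, which binds ligands of both ephrin classes, had 283, 297 and 281 CPM in HFSC, 104 and 78 for ORS, 51.1 and 52.4 for basal HB, and 54.8 and 31.4 for suprabasal HB. It fell 3.15-fold from HFSC to ORS (log2 -1.65, SE 0.22, adjusted p = 0.000576), and all 3 HFSC libraries were above both ORS libraries. Epha2 was highest in suprabasal HB, with 131, 116 and 129 CPM in HFSC, 123 and 92 for ORS, 162 and 158 for basal HB, and 301 and 245 for suprabasal HB. It rose 1.7-fold from basal to suprabasal HB (log2 0.77, SE 0.15, adjusted p = 0.00689), but without basal HB replicate 2 the adjusted p was 0.0517, and on log2(TPM + 1) and log2(TPM + 0.1) it was 0.125 and 0.131. Epha2 was also the leading EphA receptor of suprabasal HB, at 117 TPM, while Epha1 led in the other 3 populations, at 227 TPM in HFSC. Epha5 was low, at 0.251 to 0.64 CPM in the 7 libraries of HFSC, ORS and basal HB and 2.38 and 3.51 CPM in suprabasal HB, and rose 4.69-fold from basal to suprabasal HB (log2 2.23, SE 0.33, adjusted p = 0.00153). Epha3 ran from 0.324 to 1.49 CPM in HFSC and ORS and stood at 3.51 and 2.94 CPM in basal HB; its difference from ORS passed the test (log2 2.09, SE 0.54, adjusted p = 0.0184), but not without basal HB replicate 1 (0.0926) or replicate 2 (0.0559).

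Among the 5 EphB receptors, which mostly bind ephrin-B, Ephb1 and Ephb6 fell at each step from HFSC to suprabasal HB. Ephb6 (chr6:41605482-41620509), a family member that lacks kinase activity, had 396, 328 and 334 CPM in HFSC, 80.4 and 92.6 for ORS, 38 and 40.5 for basal HB, and 10.01 and 5.57 for suprabasal HB. No population overlapped another, and the gene fell 4.08-fold from HFSC to ORS (log2 -2.03, SE 0.22, adjusted p = 0.000196), 2.2-fold from ORS to basal HB (log2 -1.14, SE 0.22, adjusted p = 0.00519) and 5.02-fold from basal to suprabasal HB (log2 -2.33, SE 0.24, adjusted p = 0.000276). Ephb1 (chr9:101922128-102354693) had 55.2, 47.8 and 52.8 CPM in HFSC, 16.9 and 17.9 for ORS, 6.69 and 7.2 for basal HB, and 2.87 and 2.93 for suprabasal HB. Its populations did not overlap either, and it fell 2.99-fold from HFSC to ORS (log2 -1.58, SE 0.10, adjusted p = 3.03e-05), 2.5-fold from ORS to basal HB (log2 -1.32, SE 0.11, adjusted p = 0.000123) and 2.4-fold from basal to suprabasal HB (log2 -1.26, SE 0.12, adjusted p = 0.00016). Ephb3 had 287, 247 and 264 CPM in HFSC, 89.6 and 103 for ORS, 38.6 and 43 for basal HB, and 42.8 and 28.1 for suprabasal HB. It fell 2.77-fold from HFSC to ORS (log2 -1.47, SE 0.17, adjusted p = 0.00031) and 2.36-fold from ORS to basal HB (log2 -1.24, SE 0.18, adjusted p = 0.00132), while the suprabasal HB libraries overlapped basal HB. Ephb4 moved less, at 68.7 to 84.1 CPM in HFSC, 57.6 to 62.3 in ORS, 38.6 to 40.1 in basal HB and 33.5 to 43.9 in suprabasal HB; its fall from ORS to basal HB (adjusted p = 0.0102) was not kept without basal HB replicate 1 (0.0574) or replicate 2 (0.0692), or on the TPM scales (0.0943 and 0.101). Ephb2 stayed at or under 7.09 CPM in every library and was highest in suprabasal HB. By edgeR it was called higher there than in basal HB (log2 1.19, adjusted p = 0.0267). That call was lost with limma on the TPM scales (adjusted p = 0.125 and 0.2). It was also lost without either basal HB library or suprabasal HB replicate 1. Summed TPM of the 5 EphB receptors was 425 ± 67.6 in HFSC, 143 ± 12.6 in ORS, 73 ± 1.1 in basal HB and 41.2 ± 15.4 in suprabasal HB. Ephb6 led this class in all populations but suprabasal HB, where Ephb3 did.

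The ephrin-B ligands Efnb1 and Efnb2 were lowest in HFSC, where the EphB receptors summed highest. Efnb1, the most abundant ligand of the whole set in TPM in each population, had 256, 251 and 267 CPM in HFSC, 413 and 544 for ORS, 308 and 347 for basal HB, and 371 and 439 for suprabasal HB. Both ORS libraries lay above all 3 HFSC libraries, and the gene rose 1.85-fold from HFSC to ORS (log2 0.89, SE 0.14, adjusted p = 0.00105). Efnb2 had 66.5, 83.1 and 90.7 CPM in HFSC, 166 and 191 for ORS, 176 and 182 for basal HB, and 221 and 169 for suprabasal HB. It rose 2.23-fold from HFSC to ORS (log2 1.15, SE 0.15, adjusted p = 0.00055) and then stayed between 166 and 221 CPM in the 6 libraries outside HFSC. Efnb3 was at 3.4 to 5.08 CPM. In summed TPM the ephrin-B ligands stood at 171 ± 10.1 in HFSC, 354 ± 66.8 in ORS, 277 ± 1.87 in basal HB and 274 ± 17.2 in suprabasal HB. The EphB receptor sum was thus the higher of the pair in HFSC and the ligand sum in the other 3 populations. In HFSC this order rested on Ephb6, which lacks kinase activity and held 283 of the 425 TPM of the receptor sum (66.5%). Without Ephb6 the ligand sum was the higher there too. In comparing HFSC with ORS, some markers of other cells also differed. Pericyte and smooth muscle markers summed to 1409 to 2121 TPM in HFSC and 519 to 610 in ORS (3 of 6 lower in ORS). Most of that sum was Acta2 (1179, 658 and 963 TPM in HFSC, 249 and 223 in ORS) and Tagln (853, 691 and 790, 300 and 237). Rgs5 overlapped, at 6.45, 6.24 and 11.3 TPM in HFSC and 13.1 and 4.4 in ORS. Myh11 (3.33, 2.52 and 4.16, 6.28 and 1.76) and Des (1.28, 1.65 and 2.93, 2.67 and 1.01) overlapped too. Of the dermal fibroblast markers, 8 of 12 were lower in ORS. The part of these cell types in the results was not tested.

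**Figure D2:**
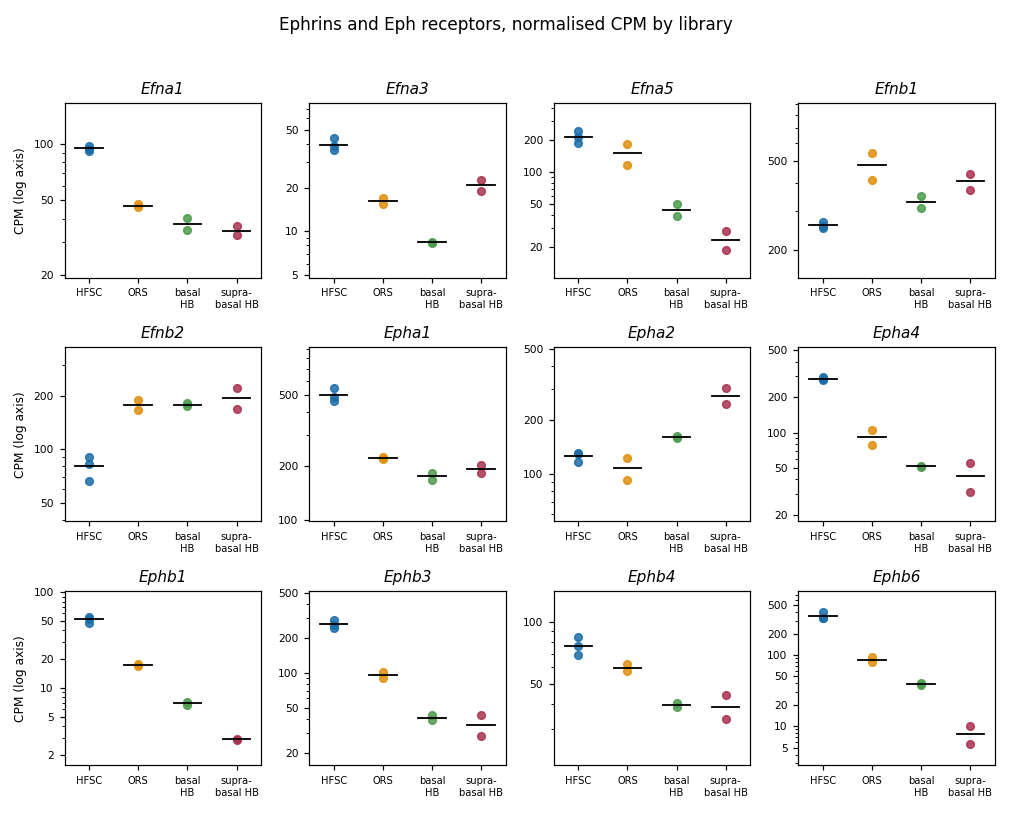
Normalised CPM on a log axis of 12 ephrins and Eph receptors, 1 point per library, with the population mean as a bar. Ephb1 and Ephb6 fall at each step from HFSC to suprabasal HB, from 353 to 7.79 mean CPM for Ephb6, while Efnb1 and Efnb2 are lowest in HFSC.

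Class 3 semaphorins, which are secreted, were highest in HFSC and lowest in suprabasal HB for 3 of the 4 most abundant. Sema3e (chr5:14025276-14256689), which binds Plxnd1 directly, had 294, 268 and 308 CPM in HFSC, 153 and 228 for ORS, 35.2 and 62.3 for basal HB, and 9.2 and 8.46 for suprabasal HB. The HFSC and ORS libraries stood above the hair bulb libraries, and the gene fell 3.91-fold from ORS to basal HB (log2 -1.97, SE 0.27, adjusted p = 0.000862) and 5.52-fold from basal to suprabasal HB (log2 -2.46, SE 0.28, adjusted p = 0.000436). Sema3f, a ligand that prefers Nrp2, had 263, 184 and 211 CPM in HFSC, 107 and 134 for ORS, 82.6 and 94.7 for basal HB, and 45.1 and 45.4 for suprabasal HB. It fell 1.82-fold from HFSC to ORS (log2 -0.86, SE 0.16, adjusted p = 0.00304) and 1.96-fold from basal to suprabasal HB (log2 -0.97, SE 0.18, adjusted p = 0.00425). Sema3c had 135, 142 and 126 CPM in HFSC, 78.1 and 105 for ORS, 18.3 and 26.9 for basal HB, and 18.4 and 11.7 for suprabasal HB. Its one large difference lay between ORS and basal HB, and it fell 4.05-fold from ORS to basal HB (log2 -2.02, SE 0.25, adjusted p = 0.000542). Sema3b, much lower, ran the other way, with 6.31, 7.58 and 7.89 CPM in HFSC, 4.99 and 3.81 for ORS, 12.2 and 10.5 for basal HB, and 20.9 and 16.1 for suprabasal HB. It rose 2.59-fold from ORS to basal HB (log2 1.37, SE 0.21, adjusted p = 0.00143). Sema3d stood at 4.75, 4.47 and 5.02 CPM in HFSC and 2.17 and 1.51 CPM in ORS (log2 -1.37, SE 0.40, adjusted p = 0.023). That call was lost without HFSC replicate 1 (0.0665), replicate 2 (0.0548) or replicate 3 (0.0725) without ORS replicate 2 (0.125), and on the TPM scales (0.223 and 0.246). Sema3a and Sema3g were at 0.895 to 1.9 and 2.37 to 5.94 CPM. Sema3f led the class in every population, and the class summed to 256 ± 47.4 TPM in HFSC, 178 ± 35.4 in ORS, 101.3 ± 5.34 in basal HB and 48.1 ± 10.2 in suprabasal HB.

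The membrane-bound semaphorins each had their own order of populations. Sema4a had 139, 102 and 111 CPM in HFSC, 46.7 and 44.3 for ORS, 108 and 106 for basal HB, and 58.7 and 56 for suprabasal HB. ORS and suprabasal HB held the low libraries and HFSC and basal HB the high ones: the gene fell 2.59-fold from HFSC to ORS (log2 -1.37, SE 0.13, adjusted p = 0.000113), rose 2.36-fold from ORS to basal HB (log2 1.24, SE 0.14, adjusted p = 0.000338) and fell 1.87-fold from basal to suprabasal HB (log2 -0.90, SE 0.14, adjusted p = 0.00175). Sema4c had 44.6, 36.8 and 40.1 CPM in HFSC, 38.2 and 33 for ORS, 86.5 and 83.1 for basal HB, and 78.1 and 75.7 for suprabasal HB. It rose 2.38-fold from ORS to basal HB (log2 1.25, SE 0.11, adjusted p = 0.000158), and both hair bulb populations lay above HFSC and ORS. Sema4d, a ligand of Plxnb1, had 9.07, 7.75 and 8.25 CPM in HFSC, 20.1 and 19.9 for ORS, 22 and 21.6 for basal HB, and 37.4 and 30.9 for suprabasal HB. It rose 2.39-fold from HFSC to ORS (log2 1.26, SE 0.12, adjusted p = 0.000107). The further difference of suprabasal from basal HB (log2 0.65, SE 0.13, adjusted p = 0.00602) was not found on log2(TPM + 1) (adjusted p = 0.574) or log2(TPM + 0.1) (0.599). Sema4g ran from 97.7 to 144 CPM in HFSC and from 46.1 to 82.7 CPM elsewhere, Sema4b from 35 to 71 CPM, and Sema4f stayed at or under 1.32 CPM. Sema4a led its class in each population.

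Among the remaining semaphorins the hair bulb libraries stood apart. Sema6d (chr2:124089969-124667770), a transmembrane ligand of Plxna1, had 2.36, 2.35 and 3.71 CPM in HFSC, 4.52 and 1.89 for ORS, 25.1 and 22.3 for basal HB, and 83.4 and 80.8 for suprabasal HB. It rose 7.48-fold from ORS to basal HB (log2 2.90, SE 0.36, adjusted p = 0.000545) and again 3.46-fold from basal to suprabasal HB (log2 1.79, SE 0.33, adjusted p = 0.00479). Sema5a, which carries thrombospondin repeats, had 126, 99.5 and 128 CPM in HFSC, 90.1 and 97.1 for ORS, 108 and 111 for basal HB, and 41.7 and 41.5 for suprabasal HB. The suprabasal HB libraries lay below all others, and it fell 2.64-fold from basal to suprabasal HB (log2 -1.40, SE 0.13, adjusted p = 0.000147). Its relative Sema5b had 0.471, 0.62 and 0.145 CPM in HFSC, 0.517 and 0.38 for ORS, 4.04 and 3.94 for basal HB, and 1.07 and 0.783 for suprabasal HB. It rose 8.91-fold from ORS to basal HB (log2 3.16, SE 0.46, adjusted p = 0.00126), and its lower level in suprabasal HB (log2 -2.10, SE 0.45, adjusted p = 0.00891) was not kept without basal HB replicate 1 (0.0549) or suprabasal HB replicate 2 (0.0625). Sema6b likewise peaked in basal HB, with 0.471, 0.576 and 0.872 CPM in HFSC, 1.15 and 0.726 for ORS, 3.62 and 3.76 for basal HB, and 0.98 and 1.32 for suprabasal HB. It rose 3.94-fold from ORS to basal HB (log2 1.98, SE 0.34, adjusted p = 0.00279) and fell 3.21-fold from basal to suprabasal HB (log2 -1.68, SE 0.35, adjusted p = 0.00763). Sema6a, at 7.25 and 2.67 CPM for ORS, 14.9 and 12.1 for basal HB and 29.7 and 25.2 for suprabasal HB, was called higher in basal HB than in ORS (adjusted p = 0.0236), but not without basal HB replicate 1 (0.122) or replicate 2 (0.0579) or with only those populations fitted (0.0652). Sema6c led its class in HFSC and ORS at 5.61 and 3.47 TPM, and Sema6d led it in basal and suprabasal HB at 7.64 and 21.4 TPM. Sema7a, a lipid-anchored ligand of Plxnc1, had 11.4, 11.2 and 12.7 CPM in HFSC, 19.2 and 14.8 for ORS, 7.33 and 6.75 for basal HB, and 18 and 10.8 for suprabasal HB. It fell 2.41-fold from ORS to basal HB (log2 -1.27, SE 0.24, adjusted p = 0.00408).

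Of the plexins, Plxnc1 and Plxna4 rose most from basal to suprabasal HB. Plxnc1 (chr10:94790866-94944835) had 1.2, 1.37 and 1.24 CPM in HFSC, 4.4 and 0.994 for ORS, 16.5 and 9.41 for basal HB, and 167 and 155 for suprabasal HB. It rose 12.4-fold from basal to suprabasal HB (log2 3.63, SE 0.52, adjusted p = 0.00137), and both suprabasal HB libraries lay far above the other 7. Its difference between basal HB and ORS (log2 2.3, SE 0.52, adjusted p = 0.0102) was not called without basal HB replicate 1 (0.0754) or with only those populations fitted (0.0597). Plxna4 (chr6:32144268-32588192) had 1.99, 1.33 and 1.42 CPM in HFSC, 1.37 and 1.06 for ORS, 6.14 and 3.24 for basal HB, and 48.4 and 35.1 for suprabasal HB. It rose 8.89-fold from basal to suprabasal HB (log2 3.15, SE 0.33, adjusted p = 0.000311), and its smaller rise from ORS to basal HB (adjusted p = 0.00261) was not called on log2(TPM + 1) (0.128). Plxnd1, the receptor of Sema3e, had 14, 10.01 and 13.2 CPM in HFSC, 14.6 and 9.56 for ORS, 68.3 and 60.8 for basal HB, and 109 and 92.4 for suprabasal HB. It rose 5.35-fold from ORS to basal HB (log2 2.42, SE 0.22, adjusted p = 0.00016), the step at which Sema3e fell. Plxnb3 was detected mainly in basal HB, with 0.0725, 0.0886 and 0.0364 CPM in HFSC, 0.34 and 0.0894 for ORS, 3.01 and 2.5 for basal HB, and 0.132 and 0.179 for suprabasal HB. The values in the other 3 populations ran from 0.0364 to 0.34 CPM, where 3 counts are worth 0.0335 to 0.133 CPM, which covers counting error only. The fitted differences were log2 3.71 (SE 0.53, adjusted p = 0.00113) against ORS and log2 -4.14 (SE 0.57, adjusted p = 0.00117) in suprabasal against basal HB.

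The abundant plexins moved less. Plxna2 had 96.2, 111 and 126 CPM in HFSC, 339 and 379 for ORS, 370.1 and 358 for basal HB, and 175 and 154 for suprabasal HB. It rose 3.24-fold from HFSC to ORS (log2 1.70, SE 0.12, adjusted p = 4.77e-05) and fell 2.22-fold from basal to suprabasal HB (log2 -1.15, SE 0.14, adjusted p = 0.000593), so ORS and basal HB held its high libraries. Plxna1 had 175, 155 and 178 CPM in HFSC, 241 and 294 for ORS, 277 and 278 for basal HB, and 348 and 328 for suprabasal HB. It rose 1.58-fold from HFSC to ORS (log2 0.66, SE 0.11, adjusted p = 0.00167). Plxnb2, the leading B-class plexin in all 4 populations, had 312, 276 and 316 CPM in HFSC, 321 and 350.4 for ORS, 477 and 485 for basal HB, and 396 and 359.6 for suprabasal HB. It rose 1.43-fold from ORS to basal HB (log2 0.52, SE 0.11, adjusted p = 0.00766). Plxna3 and Plxnb1 ran from 50.7 to 78.5 and 225 to 389 CPM over the 9 libraries. In TPM the leading A-class plexin was Plxna1 in HFSC and suprabasal HB (38.5 and 61.2) and Plxna2 in ORS and basal HB (62.9 and 66.8).

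The 2 neuropilins, co-receptors of class 3 semaphorins, rose at different steps. Nrp2 had 42.5, 52.7 and 60.7 CPM in HFSC, 219 and 186 for ORS, 146 and 134 for basal HB, and 207 and 160.1 for suprabasal HB. It rose 3.9-fold from HFSC to ORS (log2 1.96, SE 0.17, adjusted p = 7.35e-05), and every library outside HFSC lay above every HFSC library. Nrp1 had 15.5, 12.6 and 16.8 CPM in HFSC, 23.7 and 9.7 for ORS, 82.6 and 83.1 for basal HB, and 94.6 and 76.2 for suprabasal HB. It rose 4.98-fold from ORS to basal HB (log2 2.32, SE 0.35, adjusted p = 0.00135) and was low in HFSC and ORS. In summed TPM the neuropilins stood at 15.3 ± 2.25 in HFSC and 62 ± 8.66 in ORS, 67.6 ± 7.16 in basal HB and 68.1 ± 17.9 in suprabasal HB, with Nrp2 the higher of the pair in each.

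**Figure D3:**
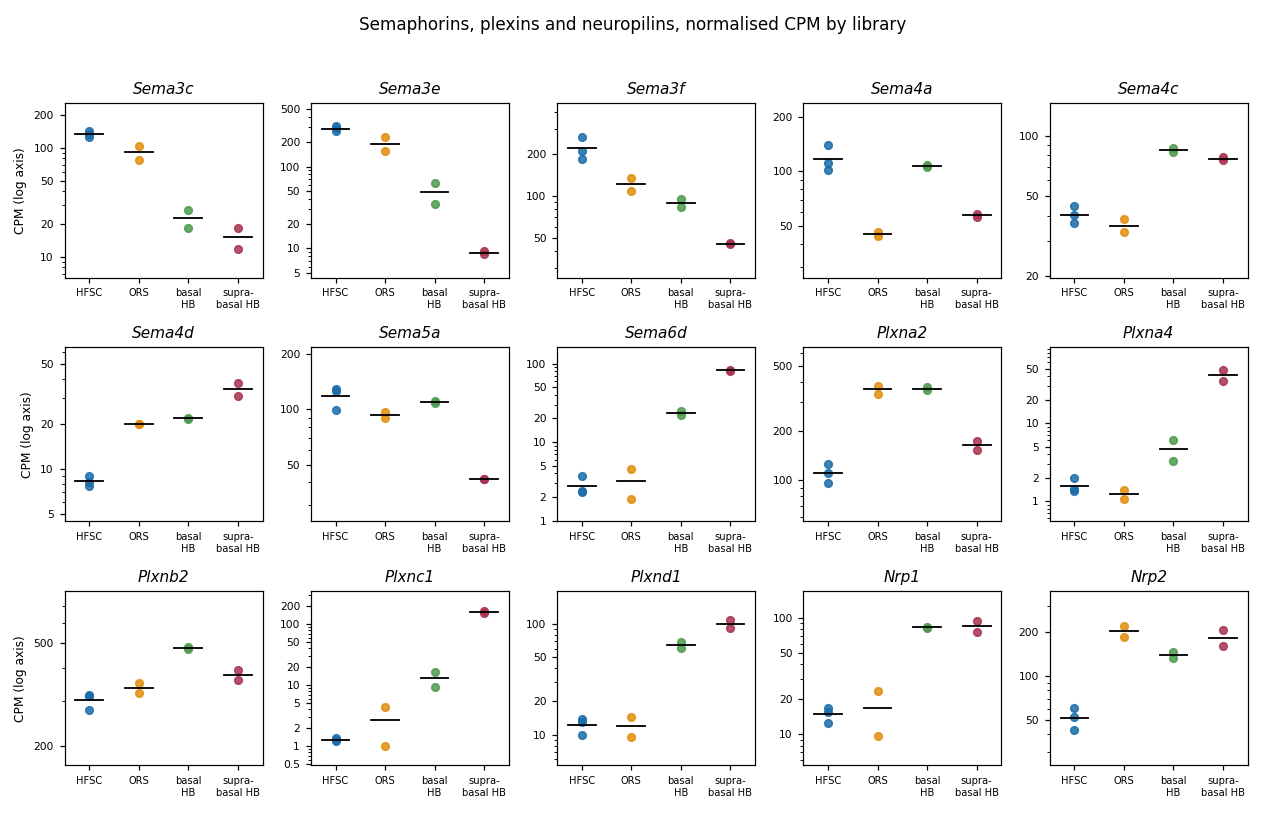
Normalised CPM on a log axis of 15 semaphorins, plexins and neuropilins, 1 point per library, with the population mean as a bar. Sema3c and Sema3e are high in HFSC and ORS, while Sema6d, Plxna4 and Plxnc1 are highest in suprabasal HB, at 161 mean CPM for Plxnc1.

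The hair bulb differences in plexins and class 6 semaphorins stood beside differences in markers of other cells. The 9 melanocyte markers summed to 63.6 to 100.3 TPM in HFSC, to 260 and 52.7 in ORS replicates 1 and 2, to 773 to 1267 in basal HB and to 10982 to 12171 in suprabasal HB. All 9 were higher in suprabasal than in basal HB, and 8 of 9 were higher in basal HB than in ORS. ORS replicate 1, with the higher melanocyte sum, also had the higher value of the ORS pair for Plxnc1 (4.40 and 0.994 CPM), Sema6d (4.52 and 1.89), Nrp1 (23.7 and 9.70) and Unc5b (83.6 and 41.8). The same 2 libraries differed in Xist, as given above, and the part of neither difference was tested. Without ORS replicate 2, Plxnc1 and Nrp1 were called higher in ORS than in HFSC (adjusted p = 0.00383 and 0.0183), which they were not with all libraries (0.189 and 0.73). Schwann cell and nerve markers summed to 33.5 to 56.2 TPM in ORS, 269 to 308 in basal HB and 145 to 201 in suprabasal HB, with 8 of 8 higher in basal HB than in ORS. Pericyte and smooth muscle markers summed to 519 to 610 TPM in ORS, 1135 to 1215 in basal HB and 39.4 to 63.5 in suprabasal HB. Of the 6, 4 were higher and 1 lower in basal HB than in ORS, the step at which Unc5b, Nrp1, Plxnd1 and Plxnb3 rose, and 6 were lower in suprabasal HB. Named after their values were seen, the pericyte gene Rgs5 had 13.1 and 4.4 TPM in ORS and 107 and 117 in basal HB, and the smooth muscle myosin Myh11 6.28 and 1.76 and 116 and 108. In the same list Cspg4 went the other way, at 38.6 and 51.5 TPM in ORS and 20.2 and 21.3 in basal HB. Tagln overlapped, at 300 and 237 TPM in ORS and 289 and 327 in basal HB. Dermal fibroblast and papilla markers summed to 718 to 1116 TPM in ORS, 1316 to 1547 in basal HB and 1022 to 2180 in suprabasal HB, with 6 of 12 higher and 1 lower in basal HB than in ORS. Among them Corin, a dermal papilla gene, had 2.73 and 0.97 TPM in ORS and 37.1 and 30.5 in basal HB, and Pdgfrb 3.25 and 2.3 and 32.5 and 32.1. Dcn, of the same list, was lower in basal HB, at 481 and 251 TPM in ORS and 151 and 133 in basal HB. Lum overlapped, at 9.54 and 3.53 TPM in ORS and 7.44 and 4.68 in basal HB. Immune markers summed to 95.5 to 140 TPM in ORS and 195 to 197 in basal HB, with 1 of 6 tested higher, and endothelial markers to 26 to 27.3 and 42.4 to 47.6, with 2 of 10 higher and 1 lower. The part of these cell types in the results was not tested.

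**Figure D4:**
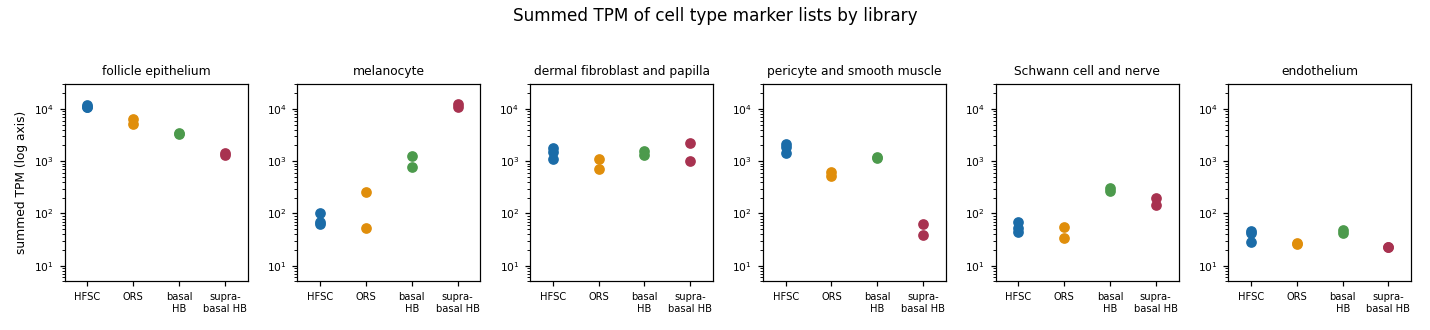
Summed TPM on a log axis of 6 cell type marker lists, 1 point per library. Melanocyte markers reach 10982 to 12171 TPM in suprabasal HB, follicle epithelium markers fall from HFSC to suprabasal HB, and pericyte and smooth muscle markers are lowest in suprabasal HB.

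Slit3 was high in both HFSC and ORS and Slit2 in HFSC, both were lowest in suprabasal HB, and their receptor Robo1 was highest in ORS and lowest in HFSC. Slit3 (chr11:35121224-35708507) had 514, 326 and 463 CPM in HFSC, 267 and 580.1 for ORS, 94.8 and 130.2 for basal HB, and 17.3 and 7.39 for suprabasal HB. It fell 9.1-fold from basal to suprabasal HB (log2 -3.19, SE 0.48, adjusted p = 0.00179). Its ORS libraries, 1 of them the highest of all 9, spanned the HFSC range, and ORS did not differ from HFSC by the test (log2 -0.04, SE 0.40, adjusted p = 0.95). Its difference between basal HB and ORS (log2 -1.91, SE 0.45, adjusted p = 0.0121) was not called without ORS replicate 2 (0.0727) or basal HB replicate 1 (0.103). Slit2 had 62.5, 47.9 and 57.1 CPM in HFSC, 15.5 and 29.8 for ORS, 27.6 and 30.1 for basal HB, and 6.86 and 4.68 for suprabasal HB. It fell 2.46-fold from HFSC to ORS (log2 -1.30, SE 0.27, adjusted p = 0.00508) and 4.99-fold from basal to suprabasal HB (log2 -2.32, SE 0.31, adjusted p = 0.000892). Robo1 (chr16:72308306-73046095) had 44.3, 67 and 75.2 CPM in HFSC, 299.6 and 349 for ORS, 125 and 118 for basal HB, and 184 and 154 for suprabasal HB. The ORS libraries were the highest and the HFSC libraries the lowest, without overlap, and the gene rose 5.22-fold from HFSC to ORS (log2 2.38, SE 0.20, adjusted p = 7.21e-05) and fell 2.67-fold from ORS to basal HB (log2 -1.41, SE 0.22, adjusted p = 0.00166). Robo2, Robo3 and Robo4 reached at most 10.04, 1.21 and 1.96 CPM. In TPM, Slits summed to 143 ± 35.4 in HFSC, 156 ± 83.3 in ORS, 49.6 ± 6.49 in basal HB and 5.57 ± 3.47 in suprabasal HB. Robos summed to 13.9 ± 3.22, 80.5 ± 8.35, 34.5 ± 5.64 and 37.9 ± 8.32, so both sums had their highest mean in ORS, where the Slit sums of the 2 libraries were 97.5 and 215. Slit3 led the Slits and Robo1 the Robos in all 4 populations.

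Netrins were highest in HFSC or ORS, and the Unc5 receptors in the hair bulb. Ntn4, a netrin related to laminins and found in basement membranes, had 301, 282 and 264 CPM in HFSC, 125 and 195 for ORS, 76.6 and 99.7 for basal HB, and 24.7 and 25.7 for suprabasal HB. It fell 3.5-fold from basal to suprabasal HB (log2 -1.81, SE 0.21, adjusted p = 0.000489). The 2 earlier steps also passed the test, but the fall from HFSC to ORS (adjusted p = 0.0082) was not called on log2(TPM + 1) (0.0609) or log2(TPM + 0.1) (0.0645), and the fall from ORS to basal HB (0.0116) was not called without ORS replicate 2 (0.0628) or basal HB replicate 1 (0.103). Ntn1, which encodes netrin-1, had 44.6, 39.5 and 45.2 CPM in HFSC, 99.1 and 129.7 for ORS, 26 and 30.6 for basal HB, and 16.3 and 6.33 for suprabasal HB. Both ORS libraries lay above the other 7, and the gene rose 2.66-fold from HFSC to ORS (log2 1.41, SE 0.30, adjusted p = 0.00589) and fell 4.05-fold from ORS to basal HB (log2 -2.02, SE 0.34, adjusted p = 0.00255). The lower values in suprabasal HB passed the test (adjusted p = 0.0223), but not without basal HB replicate 1 (0.0679) or replicate 2 (0.105), with a replicate block (0.0521) or with only those populations fitted (0.058). Ntn5 was low, at 0.872 to 1.42 CPM in HFSC and 0.266 to 0.425 CPM in ORS; the difference (log2 -1.73, SE 0.41, adjusted p = 0.00971) was not called without ORS replicate 1 (0.0723).

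Unc5b (chr10:60762593-60831581), a netrin receptor, had 35.9, 37.7 and 41.2 CPM in HFSC, 83.6 and 41.8 for ORS, 584 and 558 for basal HB, and 466 and 512 for suprabasal HB. All 4 hair bulb libraries lay above all 5 others, and the gene rose 9.11-fold from ORS to basal HB (log2 3.19, SE 0.28, adjusted p = 0.000154), while its difference between suprabasal and basal HB did not pass the test (log2 -0.22, SE 0.26, adjusted p = 0.57). It held 99.1% of the summed Unc5 TPM in basal HB. The values in ORS relative to HFSC (log2 0.71, SE 0.24, adjusted p = 0.039) rested on ORS replicate 1, without which the adjusted p was 0.47; the call was also lost without HFSC replicate 1 (0.0743), HFSC replicate 2 (0.0618), basal HB replicate 1 (0.0593) or basal HB replicate 2 (0.0599), and with a replicate block (0.0878). Unc5c had 0.471, 0.487 and 0.436 CPM in HFSC, 1.05 and 0.291 for ORS, 7.75 and 4.46 for basal HB, and 3.05 and 1.25 for suprabasal HB. It rose 9.24-fold from ORS to basal HB (log2 3.21, SE 0.62, adjusted p = 0.00462). Unc5a and Unc5d stayed at or under 0.762 and 1.43 CPM. Summed TPM of the netrins was 125 ± 12.2 in HFSC, 123 ± 35.8 in ORS, 56.8 ± 5.82 in basal HB and 14.8 ± 3.34 in suprabasal HB, and that of the Unc5 receptors 9.92 ± 0.62, 19.98 ± 9.02, 188 ± 19.8 and 133 ± 3.85.

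**Figure D5:**
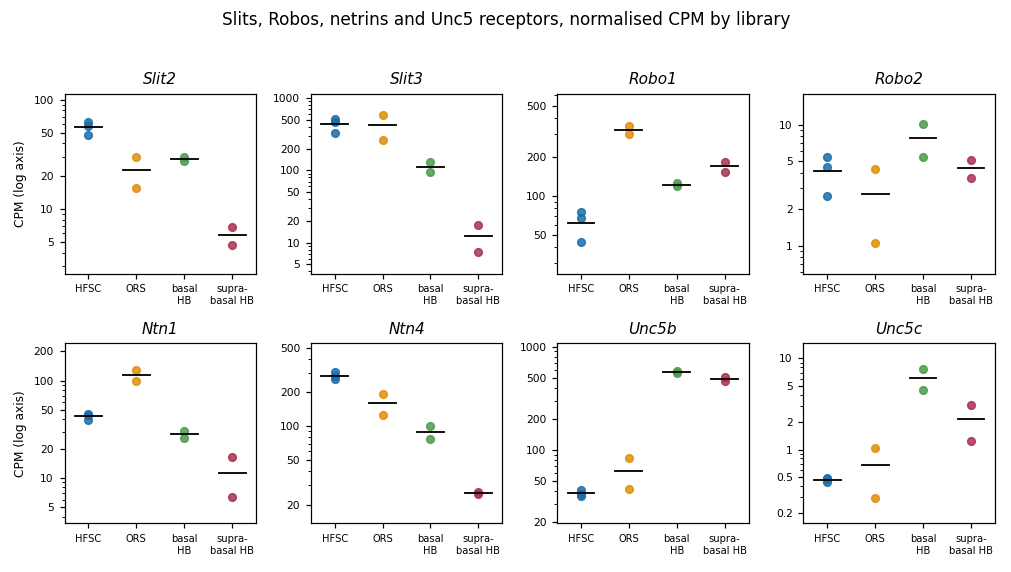
Normalised CPM on a log axis of 8 Slit, Robo, netrin and Unc5 genes, 1 point per library, with the population mean as a bar. Unc5b is at 466 CPM or more in the 4 hair bulb libraries and at most 83.6 CPM in the 5 others, while Robo1 and Ntn1 are highest in the 2 ORS libraries.

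Other genes of these pathways were taken from a list of 82 symbols, of which 80 were in the tables and 78 were tested. Of the 78, 14 were higher and 29 lower in ORS than in HFSC (17.9% and 37.2%, beside 18.1% and 23.8% of all genes). In basal HB, 13 were higher and 27 lower than in ORS (16.7% and 34.6%, beside 15.8% and 14.7%), and in suprabasal HB 10 were higher and 21 lower than in basal HB (12.8% and 26.9%, beside 13.1% and 14.8%). The shares that were higher lay near the background. The median log2 difference was -0.24, -0.07 and -0.07. Flrt2, a membrane ligand of Unc5 receptors, had 815, 713 and 738 CPM in HFSC, 538 and 902 for ORS, 117 and 196 for basal HB, and 25.5 and 20.7 for suprabasal HB. It fell 4.6-fold from ORS to basal HB (log2 -2.20, SE 0.29, adjusted p = 0.000799) and 6.76-fold from basal to suprabasal HB (log2 -2.76, SE 0.30, adjusted p = 0.000368), at the first of which Unc5b rose. Dcc, the other main receptor of netrin-1, reached at most 1.57 CPM; its difference between basal HB and ORS (adjusted p = 0.0104) was not called without basal HB replicate 1 (0.0832). Dpysl3, of the collapsin response mediator family that acts after semaphorin receptors, had 12.5, 14 and 16.4 CPM in HFSC, 24.1 and 7.77 for ORS, 150.0 and 155 for basal HB, and 56.2 and 61.6 for suprabasal HB. It rose 9.62-fold from ORS to basal HB (log2 3.27, SE 0.43, adjusted p = 0.000734), and ORS replicate 1 was above replicate 2.

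Met, the receptor of hepatocyte growth factor, which can associate with plexins, had 112, 103 and 98.8 CPM in HFSC, 72.5 and 111 for ORS, 48.1 and 43.4 for basal HB, and 343 and 310.5 for suprabasal HB. It rose 7.15-fold from basal to suprabasal HB (log2 2.84, SE 0.19, adjusted p = 4.38e-05). Nrcam, an adhesion molecule that forms complexes with neuropilins, had 4.42, 4.16 and 5.89 CPM in HFSC, 5.02 and 1.45 for ORS, 6.81 and 4.09 for basal HB, and 42 and 44.9 for suprabasal HB. It rose 7.97-fold from basal to suprabasal HB (log2 2.99, SE 0.50, adjusted p = 0.00292), and Dpysl4 fell 8.34-fold from basal to suprabasal HB (log2 -3.06, SE 0.36, adjusted p = 0.000554) there, to at most 0.17 CPM. The chimaerins, which inactivate Rac after receptor signalling, moved at different steps: Chn2 fell 3.86-fold from HFSC to ORS (log2 -1.95, SE 0.09, adjusted p = 1.63e-05), and Chn1, at most 3.18 CPM, rose 5.09-fold from ORS to basal HB (log2 2.35, SE 0.43, adjusted p = 0.00359). Plxdc1 and Plxdc2, membrane proteins with a plexin-like domain, fell 5.14-fold from HFSC to ORS (log2 -2.36, SE 0.15, adjusted p = 3.03e-05) and 3.55-fold from HFSC to ORS (log2 -1.83, SE 0.10, adjusted p = 2.34e-05), and Dpysl5 fell 3.81-fold from HFSC to ORS (log2 -1.93, SE 0.20, adjusted p = 0.000178). The melanocyte and other marker sums given above moved over the same steps, and their part in these differences was not tested.

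Over the whole set, summed TPM of the 34 ligands ran from 554 to 1330 in the 9 libraries and that of the 33 receptors from 833 to 1217. Ligands summed to 954 to 1287 TPM in HFSC and 554 to 681 in suprabasal HB, while receptors summed to 941 to 1217 and 833 to 1080. HFSC held the highest population mean for 24 of the 64 members (17 ligands and 7 receptors), ORS for 8 (4 and 4), basal HB for 15 (5 and 10) and suprabasal HB for 17 (7 and 10). Over all genes tested these shares were 33.9%, 20.3%, 20.8% and 25%, against 37.5%, 12.5%, 23.4% and 26.6% of the members.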

How the data were processed

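Bulk RNA was measured in 9 libraries of 4 sorted populations. The authors' deposited tables, 1 per sample, give RSEM expected counts, estimated reads per gene that are not scaled, and TPM, which the authors scaled for effective length and to the same sum per library. Bowtie2 2.2.9, RSEM 1.2.30 and mm10 are named per the submitters' processing notes; parameters and counting strand are not given in the sources used here. The 9 FPKM columns and a deposited TPM table of the whole series were not used, and 92 spike-in entries were at 0. Positions are from GENCODE M21 on mm10.

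Counts rounded to whole numbers were analysed in R 4.3.3 with edgeR 4.0.16. filterByExpr on the 4 populations left 20491 genes, and TMM factors ran from 0.9 to 1.127. The 4 population means were estimated together from the 9 libraries by quasi-likelihood, leaving 5 residual degrees of freedom. F-tests were 2-sided, with Benjamini-Hochberg adjustment over all genes and a threshold of 0.05. The SE of a log2 change is its size over the root of F. The procedure was tested on simulated counts. DESeq2 1.42.0 (its size factors and its Wald test), no low-count filter, a replicate block, each comparison's populations alone, each library left out, and limma 3.58.1 on log2(TPM + 1) and log2(TPM + 0.1), for genes with at least 1 TPM in 2 libraries, were alternatives.

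Genes were named by rule: per comparison up to 12 members called, changed at least 2-fold and with at least 1 CPM; signature members; the leading member of each family in TPM; and 4 genes of the pathway list. Other members were added after their values were seen. Members and lists were chosen with earlier results of these data known. Replicate libraries differed beyond counting noise. Same-numbered replicates were not taken as pairs.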

Additional observations from a re-analysis of the deposited data

How the results depend on the processing

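Over 16 alternatives, 9 of the 13 members higher and 10 of the 17 lower in ORS than in HFSC kept their call, 12 of 20 and 10 of 17 in basal HB against ORS, and 5 of 11 and 12 of 17 in suprabasal against basal HB. On log2(TPM + 1), 11 members were lower in ORS than in HFSC and 12 higher in basal HB than in ORS. In suprabasal against basal HB, 4 were higher on that scale. Over all 17408 genes tested there, the 3 counts were 2604, 2802 and 1003. On log2(TPM + 0.1) the members numbered 11, 13 and 4, and all genes 2530, 2679 and 932. Signature genes of HFSC numbered 7 on log2(TPM + 0.1) (1047 over all genes), and of basal HB 1 on that scale (811 over all genes). Those of suprabasal HB numbered 3 on log2(TPM + 1) (352 over all genes) and 2 on log2(TPM + 0.1) (185 over all genes). ORS had 2 by the DESeq2 Wald test, 2 without the low-count filter and 2 on log2(TPM + 1). Over all genes these settings called 349 of 20491, 155 of 32209 and 272 of 17408. The TPM settings tested fewer genes. Otherwise the cause was not tested. Counts over all genes tested also moved when a library was left out. Leaving out each library in turn gave 10 to 14 members higher and 13 to 19 lower in ORS than in HFSC. It gave 14 to 21 higher and 10 to 17 lower in basal HB than in ORS, and 6 to 13 higher and 12 to 20 lower in suprabasal than in basal HB. Signature genes then numbered 9 to 16 in HFSC, 0 to 1 in ORS, 1 to 3 in basal HB and 1 to 8 in suprabasal HB; where 1 library was left, it was assumed to vary like the other groups. For the genes named by rule, each in the result it was named for, 75 of 1082 values under an alternative no longer passed the threshold. None of these changed direction. Outside that rule, Sema5a, among the 17 members called lower in ORS than in HFSC (log2 -0.33), did change direction on the TPM scales. It stood at log2 0.015 on log2(TPM + 1) and 0.016 on log2(TPM + 0.1). Same-numbered replicates deviated together only weakly (r from -0.11 to 0.12), so the numbers were not taken to pair samples. With a replicate block the counts were 12 higher and 17 lower, 20 and 15, and 11 and 16 in the 3 comparisons, and the signatures 12, 0, 3 and 8. Over all 20491 genes tested, that block gave 3121 higher and 4265 lower, 3137 and 2738, and 2385 and 2829. Its signature genes over all genes numbered 2089, 1, 616 and 394. Members at a few counts per library are limited by depth, most of all in HFSC.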
